A study of Mus musculus with 6 samples.

Results

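Rab GTPases and the proteins of vesicle fusion move secretory granules to the cell surface and empty them. The genes described here are the protein-coding genes whose symbol is Rab, Vamp, Stx, Snap, Sytl or Stxbp followed by a digit, together with Myo5c. The rule found 110 genes among the 50686 in the table, and 93 of them had enough reads to be tested. The 4 granule Rabs, Rab3d, Rab26, Rab27a and Rab27b, were kept apart from the other 106. RNA had been sequenced from the lacrimal gland, the exocrine gland that makes the watery part of tears. Glands of 3 wild-type mice, titled Blacky, were compared with glands of 3 Eda-/- mice, titled Tabby, and all 6 mice were 13 weeks old and carried the C57BL/6 strain label. Eda encodes ectodysplasin A, a TNF family ligand needed for the development of hair, teeth and several glands. The question was how the gland of the mutant differs from that of the wild type.

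A Rab is a small GTPase that sits on one kind of membrane when it holds GTP and recruits effectors there, among them motors, tethers and the synaptotagmin-like Sytl proteins. Exchange factors load a Rab with GTP, and GTPase activating proteins switch it off. SNAREs then fuse the membranes: an R-SNARE on the vesicle, often a Vamp, zips up with syntaxins (Stx) and Snap proteins on the target, and Sec1/Munc18 proteins such as the Stxbp family guide this. In acinar cells of the lacrimal gland, Rab3d and the Rab27 proteins lie on mature secretory granules, and Myo5c, a myosin V of exocrine cells, carries granules along actin.

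Library totals lay between 11894395 and 15700899 counts, and wild-type 3 had fewer than mutant 3. Eda reads numbered 41, 48 and 42 in wild-type and 2, 0 and 0 in the mutant libraries. Levels are CPM, counts set to a common library size by TMM, a trimmed mean of M-values that sets the typical gene equal between libraries. A gene was called where edgeR's quasi-likelihood test gave a Benjamini-Hochberg adjusted p under 0.05 over all 13178 genes tested. Summed acinar markers reached 1046 to 1106 CPM in wild-type and 1154 to 1170 CPM in the mutants, duct markers 444 to 480 and 410 to 453 CPM. Of the duct markers 2 of 8 tested were called lower, Kit and Slc4a4, and none higher. Without Bhlha15 the other 10 acinar markers tested summed to 690 to 779 CPM in wild-type and 692 to 758 CPM in the mutants, which overlap. Of the 11 acinar markers Bhlha15, Prlr and Itpr3 were called higher and none lower. Without a call, Aqp5 lay above wild-type in every mutant, and Lyz2, Kcnn4 and Slc12a2 lay below. Lyz2 was highest in wild-type 3 (63.6 CPM), as the macrophage markers were. Macrophage markers summed to 97.5 to 178 CPM in wild-type and 50.8 to 68.2 CPM in the mutants, and 6 of 11 were lower. Myoepithelial markers summed to 142 to 186 and 105 to 123 CPM, with 4 of 8 tested lower. Fibroblast markers summed to 197 to 258 and 155 to 182 CPM, with 3 of 6 lower. In whole glands, fewer cells of a type and less RNA per cell cannot be told apart.

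The stretches just before the start sites of 4 members are shown because these genes carry the contrast described below: Rab3d, the most abundant granule Rab, which was not called, and Rab27a, Myo5c and Rab39b, which were called higher. They are RefSeq sequences of GRCm38.p6, 250 bases each and read 5′ to 3′ on the gene's strand: chr9:21918184-21918433 on the minus strand for Rab3d, chr9:73044560-73044809 on the plus strand for Rab27a, chr9:75231764-75232013 on the plus strand for Myo5c and chrX:75578232-75578481 on the minus strand for Rab39b. Capitals mark the E-box CANNTG, the letters bound by basic helix-loop-helix factors such as the acinar regulator Bhlha15.
Rab3d: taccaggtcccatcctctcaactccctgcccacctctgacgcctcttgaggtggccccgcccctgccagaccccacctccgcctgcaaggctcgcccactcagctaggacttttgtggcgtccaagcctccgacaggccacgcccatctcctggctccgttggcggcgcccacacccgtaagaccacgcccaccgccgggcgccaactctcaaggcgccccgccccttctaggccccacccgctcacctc
Rab27a: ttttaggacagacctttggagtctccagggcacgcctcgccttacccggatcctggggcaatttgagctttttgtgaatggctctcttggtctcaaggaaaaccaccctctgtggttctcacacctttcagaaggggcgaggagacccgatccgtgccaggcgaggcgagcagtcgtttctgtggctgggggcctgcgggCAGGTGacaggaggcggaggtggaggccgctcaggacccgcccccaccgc
Myo5c: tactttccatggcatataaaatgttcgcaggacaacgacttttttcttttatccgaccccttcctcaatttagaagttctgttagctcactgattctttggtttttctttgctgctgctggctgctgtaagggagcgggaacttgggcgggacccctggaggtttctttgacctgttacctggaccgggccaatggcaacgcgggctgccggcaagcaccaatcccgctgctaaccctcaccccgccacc
Rab39b: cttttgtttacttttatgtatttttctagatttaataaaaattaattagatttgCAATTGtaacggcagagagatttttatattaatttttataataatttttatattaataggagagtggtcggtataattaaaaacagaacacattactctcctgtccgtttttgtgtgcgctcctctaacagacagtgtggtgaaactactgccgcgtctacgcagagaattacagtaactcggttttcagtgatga

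The Rab27a window held 1 E-box, CAGGTG, the Rab39b window held 1, CAATTG, and the windows of Rab3d and Myo5c held none. Their base composition ran from 69.2% GC before Rab3d, over 62% before Rab27a and 52.8% before Myo5c, to 31.6% before Rab39b. A promoter was matched by symbol for 90 of the 110 members, and an E-box lay in 58 of these (64.4%), where 66.1% of 27025 promoter windows of the same length have one. The letters read the same on both strands. It was present in 8 of the 10 members called higher and in 0 of the 3 matched members called lower. The version with an AT centre, CATATG, which is 1 of the forms of CANNTG, was in 1 of 90 members (1.11%) and in 3.48% of all windows. The median GC content was 60.8% in the members' windows and 52.0% in all. These matches describe letters in a window and are not sites of binding. Bhlha15 RNA itself was higher in the mutants, at 435 ± 27.4 CPM against 340 ± 14.7 CPM in wild-type (SD, n = 3 each, edgeR adjusted p = 0.00694), and its part in any member's level was not tested.

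In the Eda-/- gland 14 of the 93 tested members of this machinery differed from wild-type, and most others were within a narrow range. The 10 called higher were Rab27a, Rab15, Rab39b, Rab6a, Rab5if, Vamp8, Snap47, Stx17, Sytl3 and Myo5c. The 4 called lower were Rab26, Rab8b, Rab3il1 and Rab11fip5. That is 15.1% of the tested members, beside 13.1% of all genes tested. In edgeR's test 26 of the 93 members had an unadjusted p under 0.05, as had 3623 of all 13178 genes. Higher calls made up 10.8% of members and 6.21% of all genes, and lower calls 4.30% of members and 6.9% of all genes. The median log2 fold change of the tested members was 0.04, against 0.00 for all genes, and 53 of 93 lay above 0, as did 6652 of all 13178 genes. In 17 members every mutant library lay above every wild-type library (18.3%, against 15.9% of all genes), and in 9 every mutant library lay below (9.68%, against 16.2%). Changes were small: 86 of 93 members stayed within 1.5-fold of the wild-type level, and only Rab39b and Rab3il1 passed 2-fold. The same fold counts were not made over all genes, so small changes are not shown to be particular to these members. The higher and lower counts depend on the scaling, since library totals in place of TMM gave 1 member higher and 28 lower with the median of all genes at -0.28, and upper-quartile scaling gave 6 higher and 4 lower. Of the 14 calls, 5 were made again with each library left out in turn: Rab26, Rab39b, Rab5if, Rab11fip5 and Rab3il1.

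The granule Rabs did not move together. Rab26, a GTPase of secretory granules in exocrine cells, was lower in the mutants, Rab27a was higher, and Rab3d and Rab27b were not called. Among the tested members other than these 4, 9 of 89 were higher (10.1%, beside 6.21% of all genes) and 3 lower (3.37%, beside 6.9%). Their median log2 fold change was 0.04.

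**Figure D1:**
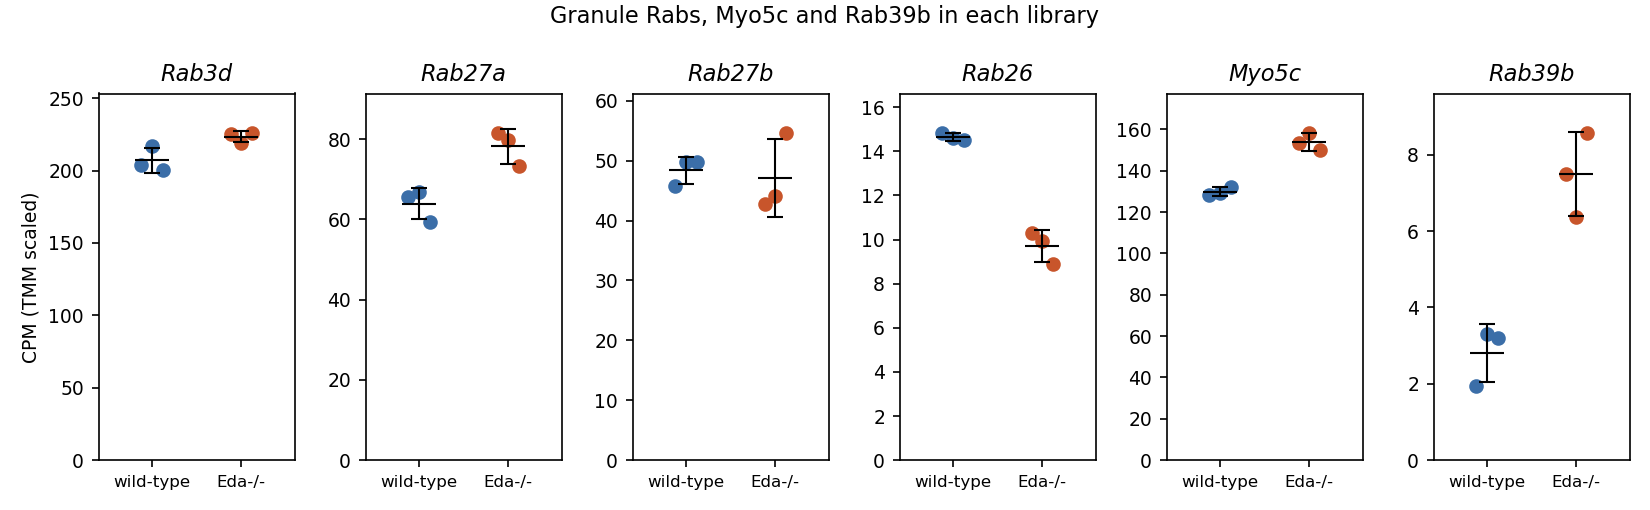
TMM-scaled CPM of the 4 granule Rabs, Myo5c and Rab39b in each library, with 3 wild-type and 3 Eda-/- points a panel; the long bar is the mean and the whiskers are ± 1 SD. Rab26 sits at 14.5 to 14.8 CPM in wild-type and 8.89 to 10.3 CPM in the mutants, whereas the Rab27b groups overlap.

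Rab26 (ENSMUSG00000079657.10, GRCm38 chromosome 17, 24527241 to 24534210, minus strand) had 14.8, 14.6 and 14.5 CPM in the wild-type libraries and 10.3, 9.93 and 8.89 CPM in the mutants. Every mutant library lay below every wild-type library, and the wild-type values were close to each other. Its level fell by 0.60 on the log2 scale (SE 0.11, 95% interval -0.82 to -0.37, edgeR adjusted p = 0.00172), to 0.662 times the wild-type level. It stayed called without any 1 library (adjusted p up to 0.0134) and with library totals (-0.87). Rab26 shares 267 exon bases, 9.36% of its exons, with Traf7 on the same strand. Traf7, an E3 ubiquitin ligase of the TRAF family, was lower as well, from 16.3 to 11.03 CPM (log2 fold change -0.56, adjusted p = 0.00798). How reads of the shared bases were assigned was not tested. Of 54 tested genes within 1 Mb of Rab26, 15 were called (27.8%) and 6 changed more than 2-fold.

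Rab27a, which recruits Sytl proteins and myosin linkers to granules, had 65.5, 66.8 and 59.4 CPM in wild-type and 81.6, 79.8 and 73.3 CPM in the mutants. The groups did not overlap, and the log2 fold change was 0.29 (SE 0.08, edgeR adjusted p = 0.0207). The call was lost without wild-type 3, mutant 1 or mutant 2 (adjusted p up to 0.0783), and with library totals its log2 fold change was 0.01. Rab27b, its close paralogue, had 45.8, 49.7 and 49.8 CPM in wild-type and 42.7, 44.1 and 54.7 CPM in the mutants. Mutant 3 was the highest and mutant 1 the lowest of the 6 libraries, and the log2 fold change was -0.04 (95% interval -0.23 to 0.16, adjusted p = 0.847). With library totals it was called lower (-0.32, adjusted p = 0.0171).

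Rab3d (ENSMUSG00000019066.13, GRCm38 chromosome 9, 21907491 to 21918192, minus strand), the Rab3 protein of exocrine granules, had 203.7, 217.1 and 200.3 CPM in wild-type and 225.1, 219.1 and 226.1 CPM in the mutants. The mutants lay just above the wild-type libraries, yet the difference was not called (log2 fold change 0.11, 95% interval -0.04 to 0.26, edgeR adjusted p = 0.349). The direction changed with library totals (-0.17, adjusted p = 0.0702).

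Per length of exon, Rab3d was far the most abundant granule Rab. Its wild-type mean was 49.3 CPM per kb, and its mean over the 6 libraries lay above 98.0% of tested protein-coding genes. Rab27a followed at 16.5, Rab26 at 5.14 and Rab27b at 4.54 CPM per kb. In the mutants the means were 53.3 for Rab3d, 20.2 for Rab27a, 3.404 for Rab26 and 4.42 CPM per kb for Rab27b, so that the order of Rab26 and Rab27b changed. The lower pair sat close together in wild-type: Rab26 libraries ran from 5.086 to 5.203 and Rab27b libraries from 4.29 to 4.66 CPM per kb, without overlap.

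The mix within each family was read from per-length levels as a share per library. Rab26 made up 6.81% ± 0.273 of the 4 granule Rabs in wild-type and 4.19% ± 0.298 in the mutants (SD, n = 3 each), and the groups did not overlap. The exact two-sided permutation test gave p = 0.1, the smallest p that 3 libraries against 3 allow, and 0.32 after Benjamini-Hochberg adjustment over 8 shares. Rab8a was 78.9% ± 2.01 of Rab8a and Rab8b in wild-type and 86.1% ± 2.38 in the mutants, also without overlap (exact p = 0.1, adjusted 0.32). Neither share can pass 0.05 with these numbers of libraries. Rab3d held 65.4% of the granule Rabs in wild-type and 65.6% in the mutants (exact p = 0.8). Rab3d was 91.6% and 93.2% of the Rab3 genes (exact p = 0.2), Rab27a 78.4% and 82.0% of the Rab27 pair (exact p = 0.3) and Vamp8 39.9% and 43.7% of the Vamp genes (exact p = 0.2). Rab1a held 79.8% and 81.0% of the Rab1 pair (exact p = 0.6). The share of Rab6a in the Rab6 pair was the most variable, 66.1% ± 7.90 and 83.9% ± 11.6 (exact p = 0.2).

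**Figure D2:**
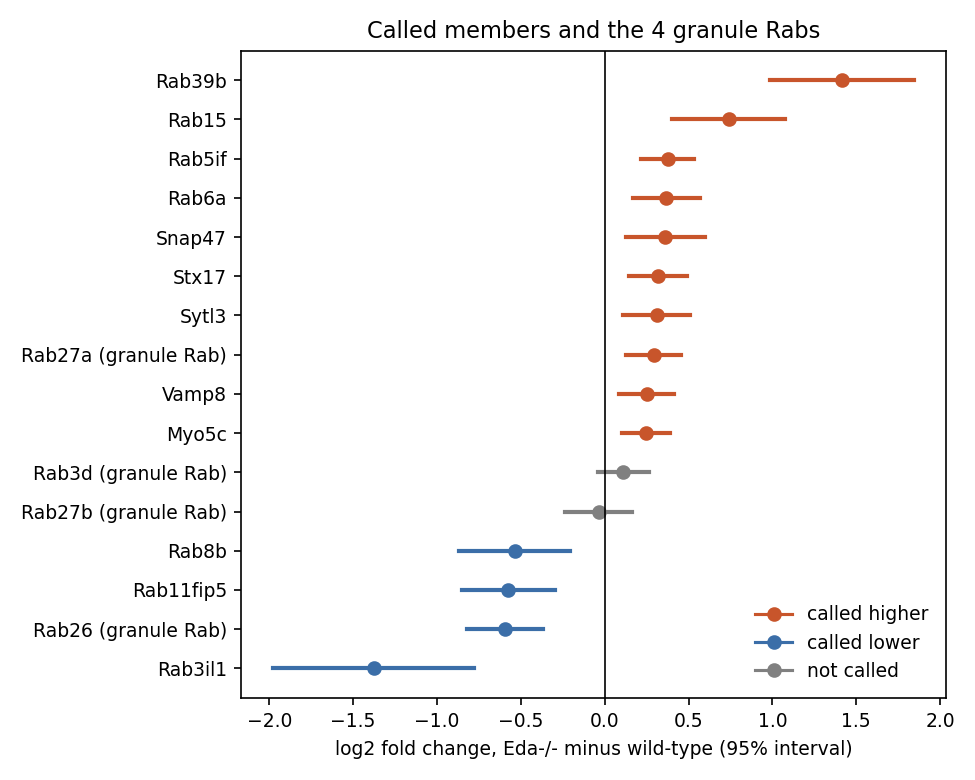
Log2 fold change (Eda-/- minus wild-type) of the 14 called members and the 4 granule Rabs, with 95% intervals from the edgeR fit. Rab39b at 1.41 and Rab3il1 at -1.38 lie farthest from 0, and the intervals of Rab3d and Rab27b cross 0.

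Among the other Rabs of secretion and recycling, 12 of 17 were tested, 1 was higher and 1 lower (8.33% each, beside 6.21% and 6.9% of all genes). Rab15, a Rab of recycling endosomes, had 50.01, 50.5 and 55.9 CPM in wild-type and 100.5, 94.5 and 66.4 CPM in the mutants. The mutants all lay above wild-type but were spread widely, with mutant 3 the lowest. Its log2 fold change was 0.74 (SE 0.15, edgeR adjusted p = 0.0147), and it was not called without mutant 2 (adjusted p = 0.0519) or with library totals (0.46, adjusted p = 0.0839). Rab8b, which acts in transport to the plasma membrane, had 8.98, 8.35 and 9.82 CPM in wild-type and 6.72, 4.69 and 7.17 CPM in the mutants. It was lower (log2 fold change -0.54, SE 0.16, adjusted p = 0.0334), although leaving out any 1 library other than mutant 3 ended the call (adjusted p up to 0.123), as did DESeq2 (0.0805) and taking out a trend on GC and length (0.073). Its paralogue Rab8a was at 33.5 ± 1.42 and 37.6 ± 0.826 CPM and was not called. The 2 most abundant of this group per length were Rab10 (log2 fold change 0.06, adjusted p = 0.638, and -0.22 with library totals) and Rab25 (0.20, adjusted p = 0.203).

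Of the Rabs of the endoplasmic reticulum and Golgi, 2 of 11 tested were higher (18.2%, beside 6.21% of all genes), Rab39b and Rab6a. Rab39b (ENSMUSG00000031202.5, GRCm38 chromosome X, 75572046 to 75578231, minus strand), best known from neurons, had the largest rise of any member. It had 1.93, 3.29 and 3.21 CPM in wild-type and 7.51, 6.37 and 8.58 CPM in the mutants, with every mutant well above every wild-type library. The log2 fold change was 1.41 (SE 0.20, 95% interval 0.99 to 1.84, edgeR adjusted p = 0.000234), called without any 1 library (adjusted p up to 0.0026) and with library totals (1.13). Its level per length, averaged over the 6 libraries, lay above 38.3% of tested protein-coding genes. It lies 24.4 Mb from Eda on the same chromosome, and 1 of 10 tested genes within 1 Mb of it was called. The antisense gene Gm15063 overlaps 18.6% of its exons and had 0 CPM in wild-type and 0.03 CPM in the mutants. Of the 12 neuron markers none was tested, and their sum was 0.823 to 1.61 CPM in wild-type and 1.09 to 1.22 CPM in the mutants.

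Rab6a, the Golgi Rab, had 25.9, 30.7 and 31.5 CPM in wild-type and 35.1, 39.5 and 39.1 CPM in the mutants (log2 fold change 0.37, edgeR adjusted p = 0.0165). The groups did not overlap, but the call was lost without wild-type 1, mutant 2 or mutant 3 (adjusted p up to 0.0705), and the log2 fold change was 0.08 with library totals. Mrpl48 overlaps 19% of Rab6a exons on the opposite strand and was not called (-0.20, adjusted p = 0.238). Rab6b, its paralogue, had 23.5, 13.8 and 24.3 CPM in wild-type and 3.41, 7.69 and 21.5 CPM in the mutants. Mutants 1 and 2 were far below the rest and mutant 3 lay within the wild-type range, and no difference was called (-0.88, SE 0.70, adjusted p = 0.508). Rab2a (log2 fold change 0.14, adjusted p = 0.228) and Rab1a (0.24, adjusted p = 0.0549), Rabs of traffic between the endoplasmic reticulum and Golgi, had 50.5 and 46.8 CPM per kb in wild-type, levels next to that of Rab3d. Rab1a was called higher with limma-voom and once a trend on GC and length was taken out, but its log2 fold change was -0.04 with library totals.

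The Rabs of endosomes and lysosomes gave 0 calls among 16 tested with edgeR, DESeq2 and limma-voom alike. In edgeR's test 1 had an unadjusted p under 0.05, and their median log2 fold change was -0.09. Among all 13178 genes edgeR called 13.1%, and 3623 had an unadjusted p under 0.05. Whether the 16 differ from that share was not tested. Rab7, the late endosome Rab, had a log2 fold change of 0.07 (adjusted p = 0.616) and Rab5c, of early endosomes, 0.03 (adjusted p = 0.872). Rab7b had 1.995, 2.06 and 4.30 CPM in wild-type and 1.83, 1.87 and 1.33 CPM in the mutants (-0.73, adjusted p = 0.161), with wild-type 3 apart from the rest. With library totals Rab7b was called lower (-1.02, adjusted p = 0.036). Among 4 tested Rabs of other roles none was called by edgeR, DESeq2 or limma-voom, with 1 at an unadjusted p under 0.05 in edgeR's test. The most abundant per length, Rab28, had a log2 fold change of -0.05 (adjusted p = 0.79), and with library totals it was called lower (-0.33, adjusted p = 0.0255).

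**Figure D3:**
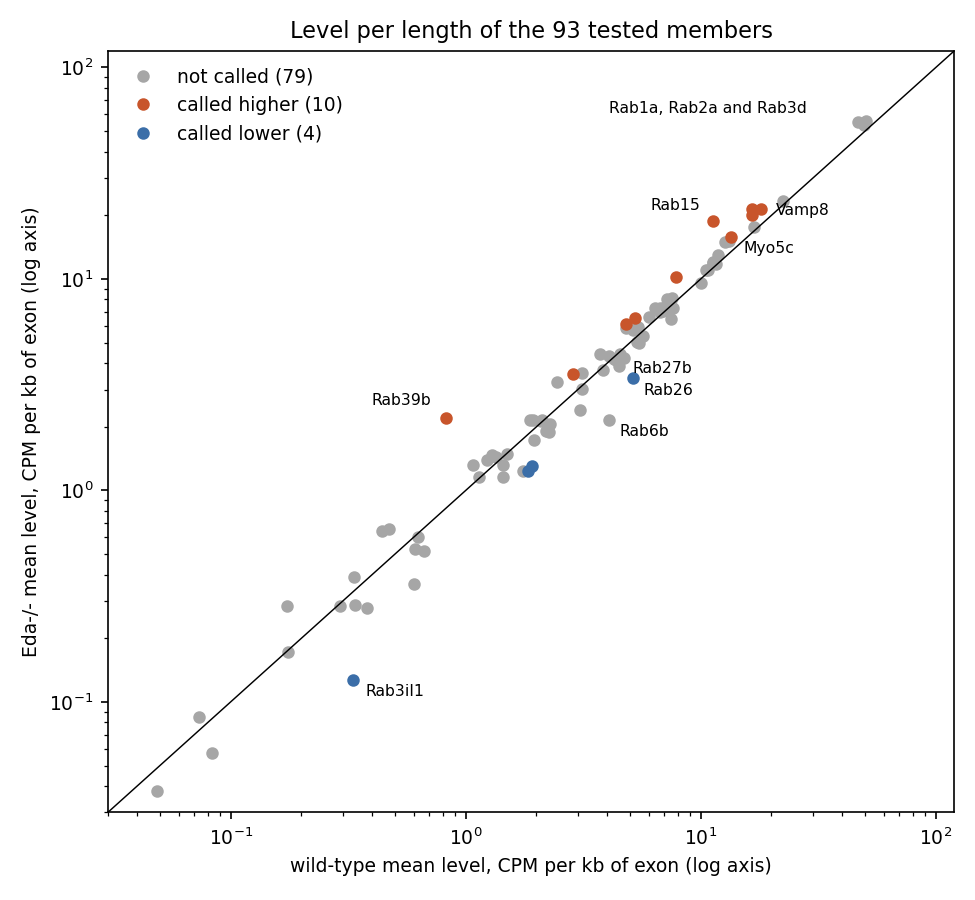
Mean level per kb of exon of the 93 tested members in wild-type (x axis) and Eda-/- glands (y axis), both log axes, with the line of equality and called members in colour. Rab2a, Rab3d and Rab1a stand together at the top near 50 CPM per kb, and Rab39b and Rab3il1 are farthest from the line among the called members.

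Among regulators, effectors and other genes that bear a Rab name, 1 of 10 was higher (10%) and 2 lower (20%), beside 6.21% and 6.9% of all genes. Rab3il1, an exchange factor for Rab3 proteins, had 1.995, 2.47 and 2.50 CPM in wild-type and 0.873, 1.03 and 0.780 CPM in the mutants. The groups were far apart, and it fell by 1.38 on the log2 scale (SE 0.28, edgeR adjusted p = 0.00443), the largest fall of any member. Rab11fip5, an effector of Rab11 in recycling, had 12.2, 10.3 and 11.4 CPM in wild-type and 8.56, 6.56 and 7.56 CPM in the mutants (-0.57, SE 0.13, adjusted p = 0.00903). Both stayed lower without any 1 library, with adjusted p up to 0.0258 for Rab3il1 and 0.0404 for Rab11fip5. Rab5if, named for its interaction with Rab5, was higher, at 45.9, 50.3 and 46.0 CPM in wild-type and 62.3, 60.5 and 61.7 CPM in the mutants (0.38, SE 0.07, adjusted p = 0.0033). It was called without any 1 library (adjusted p up to 0.0164), but with library totals its log2 fold change was 0.10. Sla2 overlaps 25.5% of the Rab5if exons on the opposite strand and stayed under 0.5 CPM. Rab11fip4, the next most abundant of this group per length, was not called (-0.07, adjusted p = 0.676). With library totals Rab11fip4 was called lower (-0.35, adjusted p = 0.00816).

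Of the granule effectors and motor, 2 of 6 were higher (33.3%, beside 6.21% of all genes). Myo5c (ENSMUSG00000033590.8, GRCm38 chromosome 9, 75232020 to 75305451, plus strand) had 128.1, 129.1 and 132.2 CPM in wild-type and 153.3, 158.4 and 149.9 CPM in the mutants. The wild-type libraries lay close together, below every mutant, and the log2 fold change was 0.25 (SE 0.07, edgeR adjusted p = 0.0259). The call was lost when wild-type 1 or 2 or mutant 2 or 3 was left out (adjusted p up to 0.0825). Myo5c was also not called with upper-quartile scaling or a minimum of 1 count, and its direction reversed with library totals (-0.04). Its neighbour Myo5a, the myosin V of melanosomes and neurons, which ends before Myo5c begins, moved the other way. It had 8.42, 8.47 and 10.3 CPM in wild-type and 5.85, 5.34 and 5.85 CPM in the mutants (-0.67, SE 0.14, adjusted p = 0.00516), and was lower without any 1 library (adjusted p up to 0.0246).

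Sytl3, a Rab27 effector, had 14.3, 15.3 and 13.9 CPM in wild-type and 18.3, 17.2 and 18.6 CPM in the mutants (log2 fold change 0.31, edgeR adjusted p = 0.0412). The groups did not overlap, but the call did not survive the loss of any 1 of the 6 libraries (adjusted p up to 0.124) or DESeq2 (0.184), and library totals gave 0.03. Sytl3 was also not called with upper-quartile scaling, a minimum of 1 count or a replicate block. It lies where many genes changed: 10 of 18 tested genes within 1 Mb were called (55.6%), 6 of them over 2-fold. Sytl1, the most abundant Sytl gene per length at 12.6 CPM per kb, had a log2 fold change of 0.24 (adjusted p = 0.118).

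SNAREs of the rule gave 3 higher and 0 lower calls with edgeR among 22 tested (13.6%, beside 13.1% of all genes). In edgeR's test 8 had an unadjusted p under 0.05, as had 3623 of all 13178 genes. The median log2 fold change of the SNAREs was 0.05. DESeq2 called 1 of these SNAREs and limma-voom 2, all higher. Vamp8, the R-SNARE of exocrine granules, had the highest per-length level of these, 18.1 CPM per kb. It had 40.3, 41.3 and 43.8 CPM in wild-type and 51.7, 46.7 and 50.8 CPM in the mutants, without overlap (log2 fold change 0.25, SE 0.08, edgeR adjusted p = 0.045). The call was lost when wild-type 1 or 2 or mutant 1 or 3 was left out (adjusted p up to 0.124) and with DESeq2 (0.122), and the direction reversed with library totals (-0.03). Vamp8 was also not called with upper-quartile scaling, a minimum of 1 count, tests without the robust option or a replicate block, or once a trend on GC and length was taken out (0.0531). Vamp7, of lysosomes, was the next Vamp gene per length at 11.3 CPM per kb and was not called (0.10, adjusted p = 0.589).

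Stx17, the syntaxin of autophagosomes, had 31.9, 32.5 and 28.7 CPM in wild-type and 38.4, 39.5 and 38.3 CPM in the mutants (log2 fold change 0.32, edgeR adjusted p = 0.0176). The mutants were all higher, but the call was lost without wild-type 3 or mutant 2 (adjusted p up to 0.0681) and with library totals (0.04). Snap47 had 12.2, 13.1 and 12.8 CPM in wild-type and 17.5, 13.8 and 17.5 CPM in the mutants (0.36, adjusted p = 0.0428), with mutant 2 near the wild-type range. Its call was lost without any 1 library other than mutant 2 (adjusted p up to 0.155), with DESeq2 (0.142) and with library totals (0.08). Snap47 was also not called with limma-voom, upper-quartile scaling, tests without the robust option or a replicate block, or once a trend on GC and length was taken out (0.0525).

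Of the target-side SNAREs known from fusion at the apical membrane of exocrine cells, Stx3 and Snap23 were not called. Stx3 had a log2 fold change of -0.02 (95% interval -0.31 to 0.27, edgeR adjusted p = 0.952), and Snap23 one of -0.06 (-0.27 to 0.14, adjusted p = 0.737). Snap23 was called lower with library totals (-0.34, adjusted p = 0.0207). Stx4a, of the basolateral membrane, was at 4.12 ± 0.433 CPM in wild-type and 2.92 ± 0.493 CPM in the mutants (-0.50, adjusted p = 0.117), and with library totals it was called lower (-0.78, adjusted p = 0.0095). None of the 4 tested syntaxins of the plasma membrane was called by edgeR, DESeq2 or limma-voom, with 1 at an unadjusted p under 0.05 in edgeR's test. For all 13178 genes edgeR called 13.1%, and 3623 had an unadjusted p under 0.05. The 2 most abundant syntaxins of internal membranes per length, Stx16 (0.02, adjusted p = 0.89) and Stx5a (0.08, adjusted p = 0.559), were not called, and with library totals Stx16 turned to a called fall (-0.26).

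No Stxbp gene was called among 7 tested by edgeR, DESeq2 or limma-voom, with 1 at an unadjusted p under 0.05 in edgeR's test. Over all 13178 genes edgeR called 13.1%, and 3623 had an unadjusted p under 0.05. Stxbp2, the Munc18 form of exocrine and blood cells, had 27.6, 27.2 and 28.6 CPM in wild-type and 36.7, 27.1 and 26.7 CPM in the mutants, with mutant 1 alone above the rest (0.12, 95% interval -0.12 to 0.36, adjusted p = 0.538). Stxbp6 had a log2 fold change of 0.06 (adjusted p = 0.839). Stxbp5l was at 1.47 ± 0.274 and 2.43 ± 0.929 CPM (0.73, adjusted p = 0.121).

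Genes of nerve terminals within the rule were barely detected. The wild-type libraries held 1, 1 and 3 counts of Snap25 and the mutants 0, 0 and 0, while Rab3c had 1, 0 and 2 against 0, 0 and 0, and Rab3b 1, 1 and 0 against 1, 1 and 0. Stx1a had 2, 2 and 3 against 5, 2 and 1 counts. These counts are too few for a comparison. Untested members also included Rab42, Rab44, Rab13, Rab4b, Rab37, Vamp9, Rab36, Rab9b, Rab19, Rab33a, Rab39 and Stx11, and none of the 17 had more than 17 counts in any library. The filter asks for enough reads in 3 libraries, so a gene can pass through 1 genotype alone, and the shares given above describe the 93 and not all 110.

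Partners of these genes outside the rule were read from 9 lists of 137 genes. Of the 106 tested, 8 were higher and 3 lower, which is 10.4% beside 13.1% of all genes, with a median log2 fold change of 0.06. The GTPase activating proteins of Rabs, the largest list, had 5 higher and 1 lower of 33 (18.2%). Tbc1d8 was higher (0.34, edgeR adjusted p = 0.0042), called without any 1 library (up to 0.0188). Tbc1d9 (0.37, adjusted p = 0.0195) lost its call without wild-type 3, mutant 1 or mutant 3 (up to 0.0781), and Tbc1d1 (0.63, adjusted p = 0.0213) when wild-type 1 or 2 or mutant 1 or 3 was left out (up to 0.0813) and with DESeq2 (0.0651). Rabgap1l was lower (-0.35, adjusted p = 0.00563), also without any 1 library (up to 0.0387). Tbc1d24 and Sgsm3 made up the 5. With library totals none of the 8 higher calls remained, and 36 of the 106 were lower.

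Exchange factors gave 1 higher and 1 lower call of 28 (7.14%, beside 13.1% of all genes). Dennd4b was lower (log2 fold change -0.99, edgeR adjusted p = 0.0225), but not without wild-type 3, mutant 2 or mutant 3 (up to 0.0888) or with DESeq2 (0.0583). Rin2 was higher (0.31, adjusted p = 0.0459), but not without any 1 library other than wild-type 3 (up to 0.172). It was also not called with DESeq2 (0.146), upper-quartile scaling, tests without the robust option, or library totals (0.03). Rabac1, a receptor for prenylated Rabs, was higher, from 77.2 ± 1.33 to 103.6 ± 8.10 CPM (0.42, SE 0.07, adjusted p = 0.00147), and called without any 1 library (up to 0.00956), while the inhibitor Gdi2, which keeps Rabs soluble, was at -0.02 (adjusted p = 0.912). Of 9 exocyst subunits, which tether vesicles to the plasma membrane, Exoc8 alone was called (0.36, adjusted p = 0.0124), and it was called without any 1 library (up to 0.0417). Rabac1 and Exoc8 were not called with library totals (0.14 and 0.08).

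None of the 10 other SNAREs was called by edgeR, DESeq2 or limma-voom, with 1 at an unadjusted p under 0.05 in edgeR's test, and the most abundant, Bet1, had a log2 fold change of 0.05 (adjusted p = 0.809). None of the 4 disassembly genes or the 5 other Sec1/Munc18 genes was called by any of these tools, with 0 at an unadjusted p under 0.05, and Napa, which binds used SNARE complexes, was at -0.14 (adjusted p = 0.295). Of 34 calcium sensors, complexins and priming factors only Syt3, Doc2b, Unc13b, Cadps2 and Rph3al were tested, and none was called by these tools, also with 0 at an unadjusted p under 0.05. Beside these lists, edgeR called 13.1% of all genes, and 3623 of 13178 had an unadjusted p under 0.05. Unc13b, a priming factor, had 209.8 ± 5.10 CPM in wild-type and 218.5 ± 6.49 CPM in the mutants (0.06, adjusted p = 0.649). The Rab27 linker Mlph had a log2 fold change of -0.02 (adjusted p = 0.915). The other linker, Myrip, had 22.7, 25.3 and 23.6 CPM in wild-type and 19.5, 10.2 and 16.8 CPM in the mutants, without overlap, and the difference was not called by edgeR (-0.62, adjusted p = 0.0875). DESeq2 called 2 of the 4 motor and linker genes lower, edgeR 1.

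The 14 called members lie on 10 chromosomes. Rab27a, Myo5c and Rab8b, on chromosome 9, were called, in both directions. Rab3d, Rab11a, Rab6b and Snap91 lie on the same chromosome and were not called, and Rab39, also there, was not tested. The share of tested neighbours within 1 Mb that were called ran from 3.33% around Snap47 to 55.6% around Sytl3, with 5% around Rab27a, 10% around Myo5c and 30.4% around Rab6a, beside 13.1% of all genes. Jmjd4 overlaps 11.6% of the Snap47 exons on the opposite strand and was not called (0.08, adjusted p = 0.766). Of 109 members with sequence, 20 have at least 10% of their 31-base words in common with a second gene, counted on both strands. Their counts can depend on the strand setting and on how shared reads were treated, which are not given. Among them are 5 called members: Rab5if at 23.2%, Sytl3 at 23% (with Gm29719), Rab6a at 21.3%, Rab39b at 17.2% and Snap47 at 10.2%. For all of these but Sytl3 the main partner overlaps on the opposite strand. The macrophage, myoepithelial and fibroblast marker sums given above, and the acinar sum through Bhlha15, move with genotype. Schwann cell markers also summed lower without overlap (20.8 to 23.5 CPM in wild-type, 16.5 to 18.7 CPM in the mutants). So did platelet markers (15.6 to 20.6 and 7.22 to 14.0 CPM) and T and NK cell markers (1.41 to 2.50 and 0.524 to 0.8435 CPM). Adipocyte markers summed higher (0.899 to 1.71 and 2.495 to 3.58 CPM). The platelet, T and NK and adipocyte sums rest on few genes. Of 5 platelet markers 2 were tested: Pf4, called lower, and Itga2b, which held most of the sum and was not called. None of the 8 T and NK cell markers was tested. Of 6 adipocyte markers 1 was tested, Cfd, called higher. Among the untested, Plin1 lay above and Lep below wild-type in every mutant. The part of these cell types in the members' changes was not tested.

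**Figure D4:**
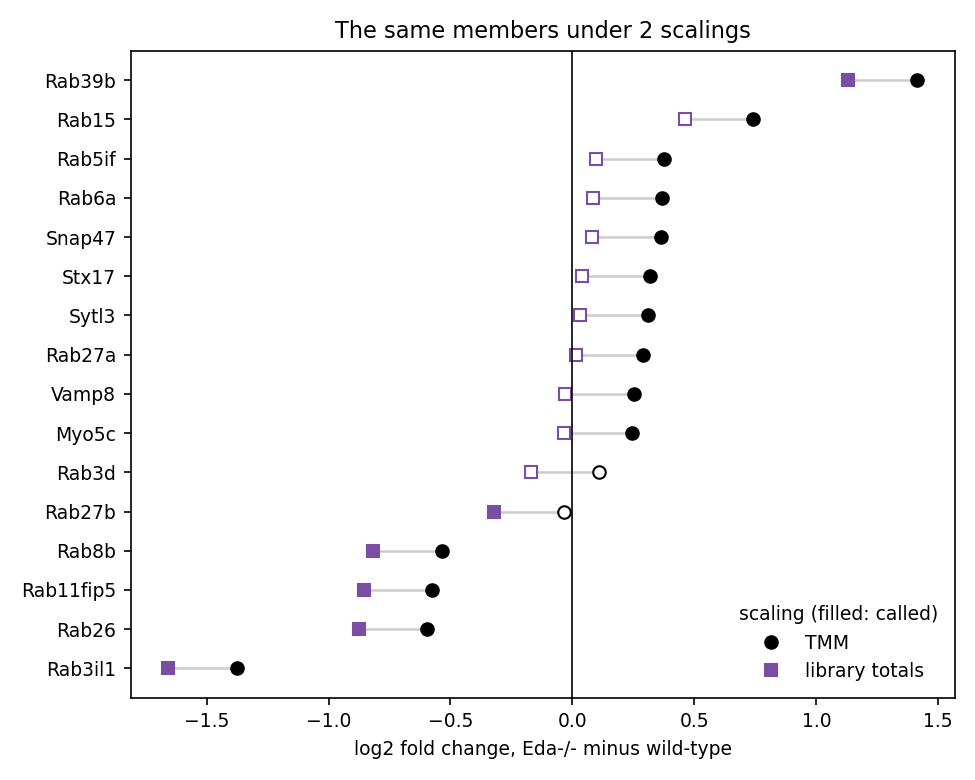
Log2 fold changes of the called members and granule Rabs (Eda-/- minus wild-type) with TMM scaling (circles) and library totals (squares), filled where called. Each library-total value lies to the left of its TMM value, Rab39b alone stays called higher, and all 4 members called lower stay called.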

How the data were processed

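RNA of 3 wild-type and 3 Eda-/- lacrimal glands was made into directional libraries after removal of ribosomal RNA, per the labels' protocols. The values are raw counts of reads per gene, deposited by the authors as 1 table. Trimmomatic, STAR, featureCounts, bcl2fastq and DESeq2, with the build GRCm38.p5, are named in the submitters' processing notes. Versions, annotation release, strand setting and the handling of multi-mapping reads are not given in the sources used, so overlapping genes are uncertain. The design text calls the samples biological replicates.

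Gene symbols, biotypes and coordinates came from GENCODE M21 (GRCm38): 50462 of 50686 identifiers matched, 45823 with the same version. The rule matched 120 symbols, of which 110 were protein-coding. Counts were fitted with edgeR 4.0.16 in R 4.3.3: filterByExpr (minimum count 10) kept 13178 genes holding at least 99.7% of each library, with TMM scaling, genotype alone and robust quasi-likelihood tests (two-sided). The common biological coefficient of variation was 10.3%. Levels per length are CPM per kb of merged exons. Replicate libraries differed by more than sampling noise (chi-square per degree of freedom 8.61 to 24.9). Scripts were tested on simulated data.

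Alternatives were DESeq2 1.42.0, limma-voom (limma 3.58.1), other scalings and filters, removal of the 20 most abundant genes, a GC and length trend (mgcv 1.9.3), a replicate block and each library left out. Named were the granule Rabs, all called members, those changed 1.5-fold, the 2 most abundant per role, nerve terminal genes below the filter, and up to 4 called genes a pathway list or, with none called, up to 2 of its most abundant. Tbc1d24, Sgsm3, Mlph, Myrip, Gdi2, Stx3, Stx4a, Rab8a, Syt3, Doc2b, Cadps2, Rph3al and Bhlha15 were added after their values were seen. Listing beside each called member the libraries whose loss ends its call, and the acinar sum without Bhlha15, were also added then. The members and lists were chosen with earlier results of these data known. Not every gene that the naming rule covers is reported here.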

Additional observations from a re-analysis of the deposited data

How the results depend on the processing

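Scaling mattered most. With library totals 246 genes were higher and 4365 lower, 1 member was higher and 28 lower, 0 pathway genes were higher and 36 lower, and the median of the members other than the granule Rabs was -0.24. Rab10 (-0.22), Vamp8 (-0.031), Stx16 (-0.26) and Myo5c (-0.036), each called under 1 of the 2 scalings, reversed, and 12 more of the 46 named genes refitted changed sign without a call under either. Levels per kb became 54.4 and 48.3 for Rab3d, 5.66 and 3.09 for Rab26 and 18.1 and 18.3 for Rab27a (wild-type and mutant), and 5.002 for Rab27b in wild-type. Upper-quartile scaling gave 6 members higher and a median of 0.0084, removal of the GC and length trend a median of 0.0596, DESeq2 4 pathway genes higher, and a minimum of 1 count 5 pathway genes lower. Leaving out each library in turn gave 561 to 677 genes higher and 599 (without mutant 3) to 834 lower, 5 to 7 members higher, 3 to 4 lower, 3 to 8 pathway genes higher, 2 to 5 lower, and a median of 0.0484 to 0.0642. The levels per kb were then 47.2 to 48.8 and 53.8 to 55.0 for Rab3d, 5.004 to 5.041 and 3.35 to 3.64 for Rab26, 15.8 to 16.5 and 20.03 to 21.3 for Rab27a, and 4.34 to 4.57 and 4.17 to 4.69 for Rab27b. The cause of these shifts was not tested.

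With the replicate number as a block, 712 genes were higher and 896 lower, 7 members higher and 4 lower, and 8 pathway genes higher and 3 lower; Vamp8 (adjusted p = 0.0622), Snap47 (0.0563) and Sytl3 (0.0608) lost their calls, and the block changed the call of no other named gene that was refitted. In the labels, same-numbered libraries share only a number. Their deviations from the group means correlated at -0.04, 0.02 and -0.09, and those of the other pairs at -0.05 to 0.08. With 3 libraries a group, such values cannot show whether same-numbered libraries shared a batch.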
